A study of Mus musculus with 6 samples.

Results

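The tissue inhibitors of metalloproteinases (Timp1, Timp2, Timp3 and Timp4), the membrane-anchored inhibitor Reck, the gelatinase Mmp2 and the membrane-type matrix metalloproteinases Mmp14, Mmp15, Mmp16 and Mmp17 were described in RNA sequencing data of mouse brain. These 10 of the 36758 genes in the deposited expression table were found by symbol, each with a single gene ID. The set was picked on FPKM values and differences of this same comparison, so those values describe it and support nothing. 3 libraries were of C57BL/6J mice that received 0.12% trimethylamine N-oxide (TMAO), a metabolite of gut bacteria and liver, once daily over 16 weeks. The other 3 were of C57BL/6J mice that received the vehicle, water, over the same 16 weeks. The series text gives an age of 6 months for the mice. Whether each library is a separate animal or a pool is not stated, so the p-values reflect only how these libraries vary, possibly for technical reasons. Values are fragments scaled to gene length and library size (FPKM), so levels of different genes can be compared per length.

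Matrix metalloproteinases (MMPs) are zinc proteases that cut extracellular matrix and cell surface proteins. The membrane-type enzymes act at the cell surface, Mmp14, Mmp15 and Mmp16 through a transmembrane segment and Mmp17 through a lipid anchor. TIMP proteins bind the active site of MMPs, though TIMP1 inhibits most membrane-type enzymes poorly, and TIMP3 also inhibits some ADAM and ADAMTS proteases. TIMP2 additionally takes part in the activation of proMMP2 by MMP14. In the brain these proteins act on the vascular basement membrane, on perineuronal matrix and on myelin. TIMP1 is known as the inducible member in glia, and TIMP2 as a constitutive one.

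The labels assign the libraries to microglia of the brain, yet neuronal RNA was abundant in all 6. Snap25, a gene of synaptic vesicle fusion, lay at 208 to 281 FPKM in TMAO and at 61.0 to 229 FPKM in vehicle. The microglial gene P2ry12 ran from 3.87 to 6.29 FPKM in TMAO and from 2.47 to 3.99 FPKM in vehicle. The values were therefore not assigned to a cell type, and in such bulk RNA fewer cells of a type cannot be told apart from less RNA per cell. 1 library, vehicle replicate 1, differed strongly from the rest. Its 6 neuron markers summed to 0.316 times the mean of the other 5 libraries, and its 6 fibroblast and 6 border macrophage markers to 8.21 and 11.4 times that mean. It was the highest of the 6 libraries for 41.8% of all genes tested, so the differences of the 10 genes and the medians of the gene lists are given with and without it.

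The inhibitor genes lie at an unusual place, shown because it bears on how their reads were counted. 3 of the 4 TIMP genes sit inside synapsin genes, which encode synaptic vesicle proteins, on the opposite strand. Positions are those of the GRCm38 annotation, found by gene ID, since the deposited table gives none. Timp1 (ENSMUSG00000001131) spans bases 20870166 to 20874735 of chromosome X (plus strand), within intron 5 of Syn1. Timp3 (ENSMUSG00000020044) spans bases 86300372 to 86349506 of chromosome 10 (plus strand), within intron 6 of Syn3. Timp4 (ENSMUSG00000030317) spans bases 115241892 to 115252205 of chromosome 6 (minus strand), and 1 of the 13 exons of Syn2 falls inside its span. Introns and exons were numbered in the synapsin transcript with the most exons.

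**Figure D1:**
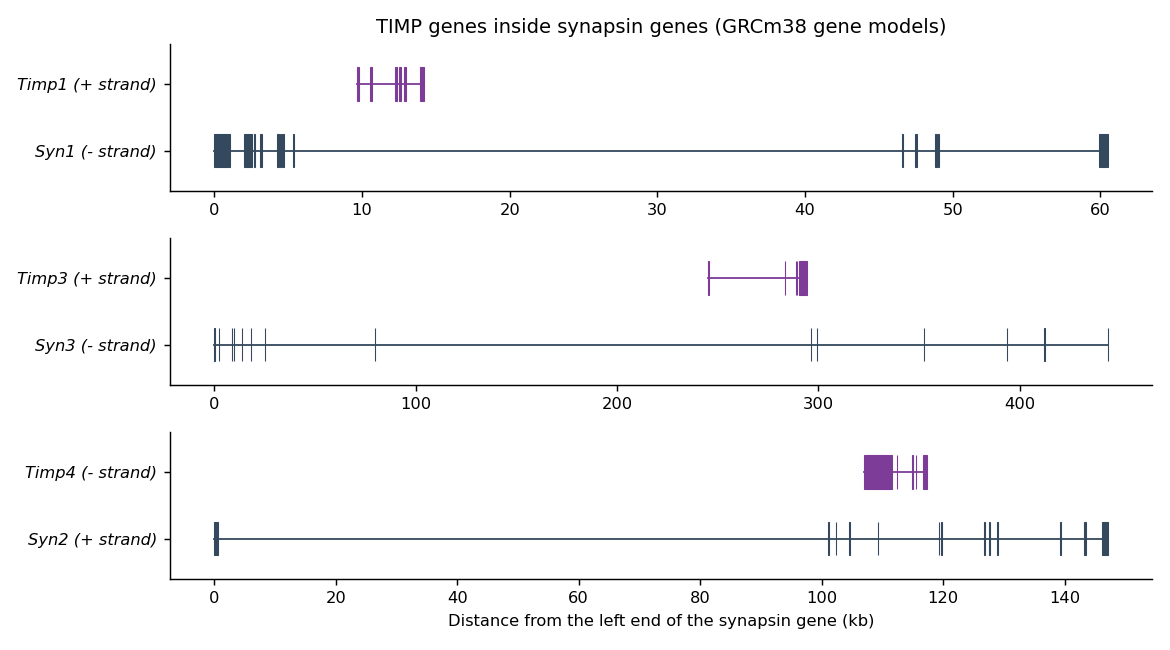
Exons (boxes) of Timp1, Timp3 and Timp4 above the exons of the synapsin gene that surrounds each, drawn to scale in kb from the left end of the synapsin gene. Timp1 and Timp3 lie between synapsin exons, and the span of Timp4 holds 1 exon of Syn2.

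Exonic bases shared by Timp1 and Syn1 numbered 0, and Timp4 shared 90 of its 5894 annotated exonic bases with Syn2. Timp3 shared 1733 of 8144 exonic bases with Syn3, all with transcripts other than the one used for numbering. The sources used here do not say whether reads were counted by strand, so reads in the shared stretches cannot be told apart. Syn1 had 141, 122.9 and 111 FPKM in TMAO and 49.4, 127 and 127 FPKM in vehicle. Syn2 had 42.7, 41.05 and 39.3 FPKM in TMAO and 20.9, 51.8 and 51.1 FPKM in vehicle. Syn3 had 1.05, 1.42 and 1.15 FPKM in TMAO and 0.454, 0.918 and 0.945 FPKM in vehicle. All 3 synapsin genes were lowest in vehicle replicate 1, where Timp1 and Timp3 were highest.

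Other overlapping genes had little signal. Cep295nl, inside Timp2, had at most 0.652 FPKM in any library, and Gm17482, which spans Timp4, at most 0.144 FPKM. Gm11860 inside Mmp16 had at most 0.0464 FPKM, and Gm27265 inside Reck was listed at 0 in all libraries. Timp2 lies on chromosome 11 from 118301069 to 118355740, Reck on chromosome 4 from 43875530 to 43944806 and Mmp16 on chromosome 4 from 17852893 to 18119145. Mmp2 and Mmp15 are both on chromosome 8, Mmp2 from 92827291 to 92853420 and Mmp15 from 95352268 to 95375080. Mmp14 lies on chromosome 14 from 54431612 to 54445364 and Mmp17 on chromosome 5 from 129584169 to 129611099. In this annotation no gene overlapped Mmp2, Mmp14, Mmp15 or Mmp17.

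Promoters of 7 of the 10 genes were in the RefSeq table for GRCm38.p6. The 250 bases before the annotated start are printed for Timp1 and Timp4, whose values lay on opposite sides of vehicle without overlap, and for Mmp14, the membrane protease with the largest difference. Capitals mark GC boxes (GGGCGG on either strand) and, in the 30 bases from inside the start of Timp1, the AP-1 type motif TGAGTAA. The window of Timp1 before its start is chrX:20869916-20870165, plus strand, and that inside it is chrX:20870181-20870210. The window of Timp4 is chr6:115252206-115252455, minus strand, and that of Mmp14 is chr14:54431348-54431597, plus strand.
Timp1 before the start: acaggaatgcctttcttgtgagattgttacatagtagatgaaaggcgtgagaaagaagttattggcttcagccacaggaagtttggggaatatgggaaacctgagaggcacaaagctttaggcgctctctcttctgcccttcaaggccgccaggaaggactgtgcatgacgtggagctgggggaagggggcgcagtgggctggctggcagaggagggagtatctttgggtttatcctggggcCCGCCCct
Timp1 inside the start: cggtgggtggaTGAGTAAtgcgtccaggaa
Timp4 before the start: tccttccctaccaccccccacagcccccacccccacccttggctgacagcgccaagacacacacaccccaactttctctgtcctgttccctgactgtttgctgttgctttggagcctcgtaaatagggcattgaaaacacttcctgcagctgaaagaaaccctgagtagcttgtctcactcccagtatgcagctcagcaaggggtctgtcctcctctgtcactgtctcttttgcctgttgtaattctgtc
Mmp14 before the start: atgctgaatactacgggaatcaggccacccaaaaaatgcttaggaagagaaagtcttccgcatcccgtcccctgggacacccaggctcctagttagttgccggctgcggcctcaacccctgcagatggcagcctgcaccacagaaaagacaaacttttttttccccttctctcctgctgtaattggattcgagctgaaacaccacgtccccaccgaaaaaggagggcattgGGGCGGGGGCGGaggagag

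The 300-base windows, which run from 250 bases before to 50 bases after the start, were searched on both strands for 4 motifs. TGAGTAA was in the window of Timp1, at bases 27 to 33 after the start, and in no other of the 7 windows. It was in 2.68% of all 32851 windows of the table. The GC box was in the windows of Timp1, Timp2, Timp3, Reck, Mmp14 and Mmp15 and not in that of Timp4, against 35.7% of all windows. Mmp14 had 2 GC boxes side by side, at bases -19 to -14 and -13 to -8. Neither the AP-1 motif TGANTCA, in 7.81% of all windows, nor the STAT motif TTCNNNGAA, in 8.3%, was found in any of the 7. These are matches of letters and were not tested as binding sites.

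Levels spanned a wide range. In TMAO, Timp2 was highest at 40.6 ± 1.31 FPKM, followed by Mmp17 at 15.2 ± 2.11, Timp3 at 12.2 ± 1.38 and Timp4 at 10.5 ± 1.07 FPKM (SD, n = 3). Reck at 3.88 ± 0.368, Timp1 at 3.55 ± 0.674, Mmp14 at 1.77 ± 0.387, Mmp15 at 1.48 ± 0.217, Mmp16 at 1.19 ± 0.0954 and Mmp2 at 0.578 ± 0.182 FPKM came after them. In this order the libraries of neighbours overlapped for Mmp17 and Timp3, Timp3 and Timp4, Reck and Timp1, and Mmp14 and Mmp15. In vehicle the libraries of every pair of neighbours overlapped, with Timp2 again highest at 51.7 ± 11.99 FPKM and Timp1 next at 47.9 ± 65.7 FPKM (SD, n = 3). Mmp16 had the lowest vehicle mean, at 1.14 ± 0.283 FPKM (SD, n = 3). Both of these places came from vehicle replicate 1. Without it Timp1 averaged 9.97 FPKM in vehicle, below Mmp17 at 17.97 and Timp3 at 14.5 FPKM, and Mmp2 was lowest at 0.587 FPKM, below Mmp16 at 1.298 FPKM.

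**Figure D2:**
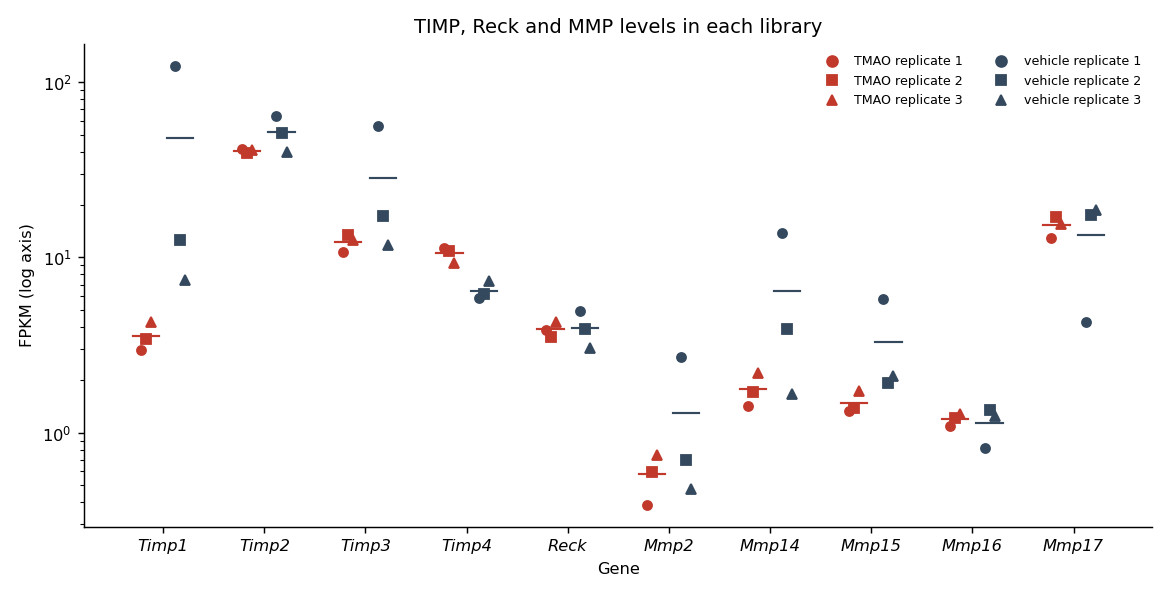
FPKM on a log axis for each of the 10 genes, with TMAO libraries (red) left of vehicle libraries (dark), 1 symbol per replicate and a line at the group mean. Vehicle replicate 1 (dark circle) is the highest of the 6 libraries for 7 of the 10 genes and the lowest for Timp4, Mmp16 and Mmp17.

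Differences between TMAO and vehicle were taken from a fit across all genes on the log2(FPKM + 1) scale, which understates the change of low genes. Of the 14206 genes tested, 0 passed an adjusted p of 0.05 by limma, and 1712 had an unadjusted p under 0.05, or 12.1%. 9 of the 10 genes passed the level filter of 1 FPKM in 3 libraries, and Mmp2 did not. Of these 9, Timp1 lay lower with an unadjusted p under 0.05, as 7.22% of all genes tested did, and Timp4 higher, as 4.84% did. Without overlap between groups, Timp1 and Mmp15 lay lower in TMAO, where 17.5% of all genes tested did so. Timp4 lay higher in TMAO without overlap, where 12.1% of all genes tested did so. Without vehicle replicate 1 these counts were 3 lower (21.7% of all genes tested), with Mmp17 added, and 1 higher (15.6%).

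Among the inhibitors, Timp1, the inducible TIMP that mainly blocks soluble MMPs, had 2.95, 3.44 and 4.28 FPKM in TMAO. In vehicle it had 124, 12.5 and 7.39 FPKM. All vehicle libraries lay above all TMAO libraries, and vehicle replicate 1 lay far above the other 2. The log2 difference was -2.42 (SE 0.977, unadjusted p = 0.0472, adjusted p = 0.404 by limma). Without vehicle replicate 1 it was -1.24 (SE 0.226, adjusted p = 0.149 by limma). In vehicle replicate 1 Timp1 was 20.2 times the mean of the other 5 libraries, a ratio that only 0.0774% of the genes tested reached, Timp1 included. In the authors' deposited table Timp1 was marked as lower (log2 fold -3.75, q 0.0731).

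Timp4, a TIMP with a narrow tissue range that includes brain and heart, differed in the other direction. It had 11.4, 10.9 and 9.32 FPKM in TMAO and 5.86, 6.18 and 7.29 FPKM in vehicle. The groups did not overlap, and vehicle replicate 1 did not stand apart from the other vehicle libraries. Timp4 averaged 10.5 ± 1.07 FPKM in TMAO and 6.44 ± 0.749 FPKM in vehicle (SD, n = 3 each), a ratio of 1.63. The log2 difference was 0.63 (SE 0.125, unadjusted p = 0.00201, adjusted p = 0.404 by limma). It was 0.58 without vehicle replicate 1 (adjusted p = 0.149 by limma). In the authors' deposited table Timp4 was higher with a q of 0.0313 and was not marked as changed. A q under 0.05 was reached there by 1.09% of genes, 0.174% higher and 0.911% lower. Every gene marked in the authors' deposited table had a log2 fold of at least 1 in size and a p under 0.05, and Timp4 had a log2 fold of 0.71 there.

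Timp3, which binds to matrix and also inhibits ADAM17, had 10.7, 13.4 and 12.6 FPKM in TMAO. In vehicle it had 56.2, 17.2 and 11.8 FPKM. The groups overlapped through vehicle replicate 3, which lay among the TMAO libraries. The log2 difference was -0.85 (SE 0.539, adjusted p = 0.438 by limma). Leaving out vehicle replicate 1 gave -0.21 (adjusted p = 0.548 by limma). In the authors' deposited table Timp3 was marked as lower, with a q of 0.359.

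Timp2, the partner of MMP14 in activating proMMP2, had 41.7, 39.2 and 40.9 FPKM in TMAO. In vehicle it had 63.8, 51.3 and 39.8 FPKM. The groups overlapped. The log2 difference was -0.31 (SE 0.186, adjusted p = 0.425 by limma). Leaving out vehicle replicate 1 gave -0.15 (adjusted p = 0.529 by limma). Reck, which holds back several MMPs at the cell surface and serves as a receptor part for WNT7 signals in brain vessels, had 3.84, 3.53 and 4.26 FPKM in TMAO and 4.92, 3.91 and 3.03 FPKM in vehicle. Its groups overlapped, and its log2 difference of -0.0077 (SE 0.166, adjusted p = 0.980 by limma) became 0.13 without vehicle replicate 1 (adjusted p = 0.626 by limma).

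**Figure D3:**
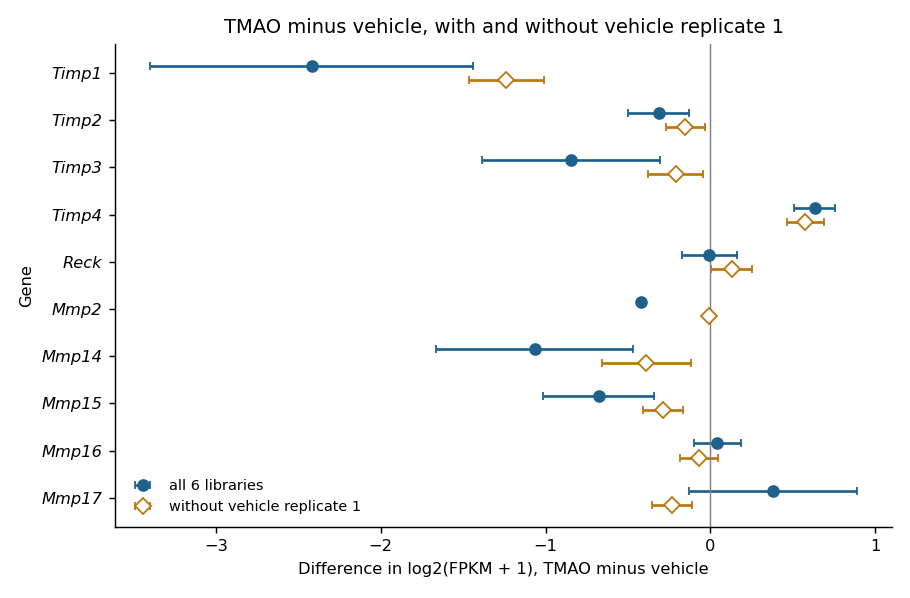
Difference in log2(FPKM + 1), TMAO minus vehicle, for each gene with all 6 libraries (filled circles) and without vehicle replicate 1 (open diamonds), with bars of 1 SE from the fit across all genes. Mmp2 was not tested and has no bar. Timp4 is the only one of the 10 genes above 0 by more than 1 SE in both, and Reck, Mmp16 and Mmp17 cross 0.

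The summed level of the 4 TIMP genes hardly varied in TMAO, at 66.7, 66.9 and 67.1 FPKM. In vehicle it was 249.6, 87.2 and 66.3 FPKM, so the groups overlapped through vehicle replicate 3. In the composition of this sum, the share of Timp1 lay lower and that of Timp4 higher in TMAO without overlap. Shares of the same sum depend on each other, so these are not separate results. By level, 17.5% of all genes tested lay lower and 12.1% higher in TMAO without overlap. Timp1 made up 4.42%, 5.13% and 6.38% of the sum in TMAO and 49.6%, 14.4% and 11.1% in vehicle. Timp4 made up 17.0%, 16.3% and 13.9% in TMAO and 2.35%, 7.08% and 10.99% in vehicle. Timp2 made up 58.5% to 62.5% in TMAO, 58.8% and 60.1% in vehicle replicates 2 and 3, and 25.6% in vehicle replicate 1. The share of Timp3 lay between 16.0% and 20.0% in TMAO and between 17.8% and 22.5% in vehicle. The ratio of Timp1 to Timp4 was 0.260, 0.315 and 0.459 in TMAO and 21.1, 2.03 and 1.01 in vehicle. Timp1 was thus below Timp4 in each TMAO library and above it in each vehicle library, by a narrow margin in vehicle replicate 3. These sums and ratios of genes chosen with results known were not tested.

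**Figure D4:**
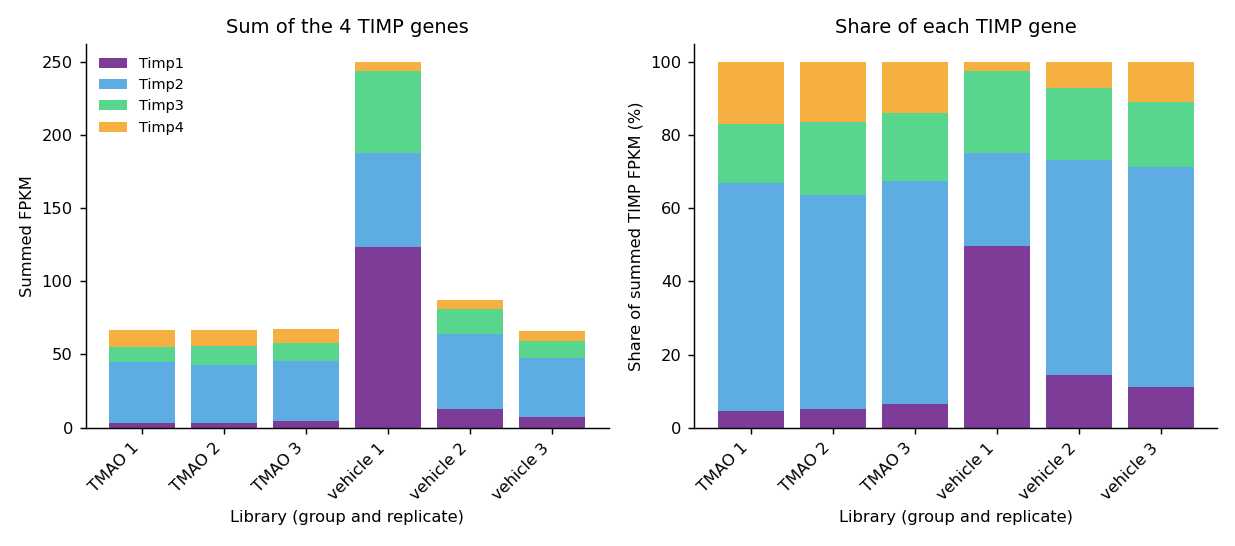
Summed FPKM of the 4 TIMP genes in each library (left) and the share of each gene in that sum in percent (right), TMAO libraries first. The TMAO sums lie between 66.7 and 67.1 FPKM, and the Timp1 share is largest in vehicle replicate 1, at 49.6%.

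Among the proteases, Mmp14, the main activator of proMMP2 at the cell surface, had 1.42, 1.70 and 2.18 FPKM in TMAO. In vehicle it had 13.7, 3.89 and 1.65 FPKM. The groups overlapped through vehicle replicate 3. The log2 difference was -1.07 (SE 0.599, adjusted p = 0.417 by limma). Leaving out vehicle replicate 1 gave -0.39 (adjusted p = 0.490 by limma). Mmp15, a close relative of Mmp14, had 1.33, 1.39 and 1.73 FPKM in TMAO and 5.80, 1.93 and 2.12 FPKM in vehicle. Its groups did not overlap, though vehicle replicate 2 lay only slightly above the highest TMAO library. The log2 difference was -0.68 (SE 0.336, adjusted p = 0.407 by limma). Leaving out vehicle replicate 1 gave -0.29 (adjusted p = 0.296 by limma). In the authors' deposited table Mmp14 and Mmp15 were marked as lower, with q of 0.153 and 0.266, and 5.06% of all genes there were marked as lower and 1.32% as higher.

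Mmp2, a gelatinase that cuts basement membrane collagen, had 0.387, 0.597 and 0.750 FPKM in TMAO. In vehicle it had 2.70, 0.695 and 0.479 FPKM. The groups overlapped, and vehicle replicate 1 alone lay above 1 FPKM. The log2 difference of -0.42 was -0.011 without that library, and no test was made in either. Mmp2, Mmp14 and Timp2, the parts of the complex that activates proMMP2, thus shared their highest value in vehicle replicate 1. The ratio of Timp2 to Mmp14 was 29.5, 23.0 and 18.8 in TMAO and 4.65, 13.2 and 24.1 in vehicle, with overlap.

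Mmp17, the lipid-anchored enzyme, was the most abundant of the proteases. It had 12.9, 17.1 and 15.6 FPKM in TMAO and 4.30, 17.4 and 18.5 FPKM in vehicle. With all libraries the groups overlapped and the log2 difference was 0.38 (SE 0.511, adjusted p = 0.671 by limma). Without vehicle replicate 1 the groups did not overlap, and the difference turned to -0.23 (SE 0.122, adjusted p = 0.366 by limma). Mmp16, a transmembrane enzyme, had 1.09, 1.21 and 1.27 FPKM in TMAO and 0.816, 1.35 and 1.25 FPKM in vehicle, with overlap. Its log2 difference was 0.042 (SE 0.143, adjusted p = 0.871 by limma). Leaving out vehicle replicate 1 gave -0.071 (adjusted p = 0.776 by limma). Mmp17 made up 77.1%, 79.9% and 75.0% of the summed level of Mmp14 to Mmp17 in TMAO. In vehicle it made up 17.4%, 70.8% and 78.7%. In vehicle replicate 1 Mmp14 took the first place in this sum, at 55.7%. The sum itself was 16.8, 21.4 and 20.8 FPKM in TMAO and 24.6, 24.6 and 23.5 FPKM in vehicle, without overlap and without vehicle replicate 1 standing apart.

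Marker levels moved with these patterns, and their part in them was not tested. The 6 endothelial markers summed to 46.8 to 58.5 FPKM in TMAO and 59.2 to 242 FPKM in vehicle. 5 of the 6 lay lower in TMAO. Slco1a4, singled out after its values were seen, lay higher without overlap, at 13.8, 15.9 and 16.7 FPKM in TMAO and 3.07, 5.01 and 10.9 FPKM in vehicle. The 6 mural cell markers summed to 35.9 to 38.5 FPKM in TMAO and 36.3 to 115 FPKM in vehicle. For the 6 fibroblast markers the sums were 9.86 to 13.01 FPKM in TMAO and 10.5 to 107 FPKM in vehicle. Most of the fibroblast sum in TMAO was Pdgfra, also an oligodendrocyte precursor marker, at 6.49, 7.40 and 7.91 FPKM. In vehicle Pdgfra had 11.2, 9.51 and 6.24 FPKM. For the 6 border macrophage markers the sums were 2.74 to 5.18 FPKM in TMAO and 3.79 to 68.4 FPKM in vehicle. The 4 neutrophil markers summed to 3.27 to 7.38 FPKM in TMAO and 13.6 to 115 FPKM in vehicle, and the 4 erythroid markers to 72.7 to 103 FPKM in TMAO and 159.7 to 506 FPKM in vehicle. All of these sums were highest in vehicle replicate 1, as were Timp1, Timp2, Timp3, Reck, Mmp2, Mmp14 and Mmp15. In that library the sum of the 6 microglia markers was also highest, at 223 FPKM, with 95.8 to 107 FPKM in TMAO and 87.4 to 118 FPKM in the other vehicle libraries. P2ry12 was the 1 microglia marker that was lowest there.

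The 6 neuron markers summed to 605 to 733 FPKM in TMAO and 208 to 643 FPKM in vehicle, and 208 FPKM was the sum in vehicle replicate 1. 5 of the 6 were lowest in that library, and Gad1, singled out after its values were seen, was highest there. Mmp17 and Mmp16 were lowest there too. Timp4 was lowest there as well, but by little, and its log2 difference was 0.58 without that library. The 6 astrocyte markers summed to 371 to 454 FPKM in TMAO and 397 to 688 FPKM in vehicle. 4 of the 6 lay lower and 2 higher in TMAO. Aqp4 and Slc1a3 had log2 differences of -0.44 and -0.15, and of -0.19 and 0.054 without vehicle replicate 1. Chosen after their values were seen, Slc1a2 lay higher and Gfap lower in TMAO without overlap. The 6 oligodendrocyte markers summed to 352 to 572 FPKM in TMAO and 691 to 866 FPKM in vehicle, without overlap. Each of the 6 lay lower in TMAO without overlap, where 17.5% of all genes tested did so. Their median log2 difference was -0.87 both with and without vehicle replicate 1. The 4 oligodendrocyte precursor markers summed to 16.0 to 20.2 FPKM in TMAO and 12.7 to 19.7 FPKM in vehicle. Of these, 3 lay lower in TMAO with overlap. Gpr17, singled out after its values were seen, lay higher without overlap, where 12.1% of all genes tested did so. It had 6.51, 6.91 and 8.26 FPKM in TMAO and 1.58, 3.62 and 3.74 FPKM in vehicle. The 5 choroid plexus markers summed to 31.8 to 38.3 FPKM in TMAO and 22.7 to 29.8 FPKM in vehicle. Most of this sum was Enpp2, singled out after its values were seen, at 30.4 to 37.2 FPKM in TMAO and 19.8 to 28.8 FPKM in vehicle. The defining gene Ttr lay at 0.213 to 0.873 FPKM in TMAO and 0.306 to 1.89 FPKM in vehicle. The 3 ependymal markers summed to 0.322 to 0.997 FPKM in TMAO and 1.04 to 2.25 FPKM in vehicle, with Tmem212 listed at 0 in 5 of 6 libraries. 1 choroid plexus and 2 ependymal markers were listed at 0 in at least 1 library, and 0 markers of the other lists were.

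The genes whose profile over the 6 libraries was nearest to Timp1 were Lif, Tnc and Nes. Nearness was the mean absolute difference between centred log2(FPKM + 1) profiles, compared with 12392 other genes with a symbol. It was 0.063 for Lif, a cytokine of the interleukin-6 family that is also in the cytokine list, 0.25 for the matrix glycoprotein Tnc and 0.25 for Nes, an intermediate filament of progenitor and reactive cells. Lif had 0.255, 0.388 and 0.572 FPKM in TMAO and 33.2, 2.95 and 1.40 FPKM in vehicle. Tnc had 0.538, 0.854 and 0.524 FPKM in TMAO and 44.7, 5.71 and 1.28 FPKM in vehicle. Both passed the level filter only through vehicle, so that their direction was set by the filter. Nearest to Timp4 were the citrate transporter gene Slc13a5 at 0.043, Mettl7a1 at 0.047 and Pstk at 0.083, a kinase in selenocysteine synthesis. Slc13a5 had 2.90, 2.67 and 2.36 FPKM in TMAO and 1.30, 1.44 and 1.76 FPKM in vehicle. Mettl7a1 had 11.5, 10.9 and 10.3 FPKM in TMAO and 6.31, 6.21 and 7.35 FPKM in vehicle. Likeness over 6 libraries is a description of these libraries.

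Other genes of the protease system were read from lists chosen with earlier results known, in which 0 genes passed the adjusted threshold. The median log2 difference over all genes tested was -0.027, and -0.021 without vehicle replicate 1. Of the 16 secreted MMPs listed, 12 were in the table and 11 of these failed the level filter. The stromelysin gene Mmp3 was the only one tested, at 0.230, 2.37 and 0.376 FPKM in TMAO and 68.7, 17.1 and 3.52 FPKM in vehicle (log2 difference -3.32, and -2.34 without vehicle replicate 1). The 12 genes summed to 2.71, 5.84 and 2.68 FPKM in TMAO and 101, 25.3 and 7.37 FPKM in vehicle, without overlap. 11 of the 12 were highest in vehicle replicate 1, where 41.8% of all genes tested were. The 11 genes under the filter had at most 0.719 FPKM in any TMAO library. Of the other membrane enzymes, Mmp24 had 7.49, 7.70 and 7.93 FPKM in TMAO and 5.24, 7.67 and 8.74 FPKM in vehicle, and Mmp25 failed the filter.

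**Figure D5:**
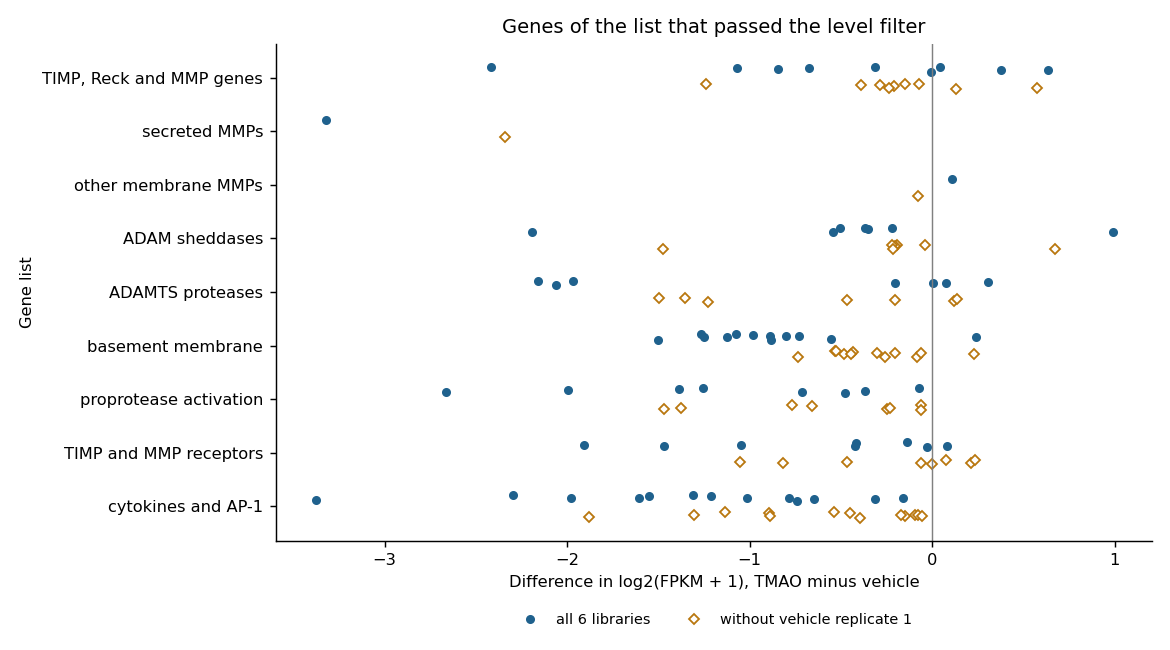
Difference in log2(FPKM + 1), TMAO minus vehicle, of each gene that passed the level filter, for the TIMP, Reck and MMP genes and 8 gene lists, with all 6 libraries (filled circles) and without vehicle replicate 1 (open diamonds). All 8 tested activation genes lie below 0 with all 6 libraries, as do the cytokine and AP-1 genes, of which Il6 and Lif passed the filter only through vehicle.

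Of the ADAM proteases, some of which TIMP3 can inhibit, 6 of 7 tested lay lower and 1 higher in TMAO. The median of the 7 was -0.37 on the log2 scale (-0.20 leaving out vehicle replicate 1). Adam8, known from myeloid cells, had 1.59, 4.25 and 2.17 FPKM in TMAO and 42.1, 16.2 and 4.51 FPKM in vehicle. The sheddase gene Adam10 was at 14.8 ± 0.138 FPKM in TMAO and 19.4 ± 4.03 FPKM in vehicle, and Adam15 at 16.3 ± 0.448 FPKM in TMAO and 21.6 ± 4.21 FPKM in vehicle (SD, n = 3 each). Without overlap 3 of the 7 ADAM genes lay lower and 1 higher, against 17.5% and 12.1% of all genes tested. Without vehicle replicate 1 these were again 3 and 1, against 21.7% and 15.6%. The higher gene was Adam33, at 5.46, 3.80 and 3.07 FPKM in TMAO and 0.636, 1.63 and 2.75 FPKM in vehicle. Of the 19 ADAMTS genes 7 were tested, 4 lower and 3 higher in TMAO (median -0.20, and -0.47 without vehicle replicate 1). 3 lay lower and 0 higher without overlap, against 17.5% and 12.1% of all genes tested. Without vehicle replicate 1 it was 5 lower and 1 higher, against 21.7% and 15.6%. The aggrecanase genes Adamts1, Adamts4 and Adamts9 had log2 differences of -2.16, -2.06 and -1.97, and of -1.50, -1.23 and -1.36 without vehicle replicate 1. Adamts1 had 9.54, 17.5 and 9.88 FPKM in TMAO and 143, 56.8 and 21.7 FPKM in vehicle. Adamts20 had a log2 difference of 0.31 with overlap, and of 0.14 without vehicle replicate 1.

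Basement membrane genes, whose products are cut by these proteases, lay lower in TMAO in 11 of 12 tested (median log2 difference -0.93, and -0.37 without vehicle replicate 1). 3 of the 12 lay lower without overlap, a share near the 17.5% of all genes tested. They were the laminin genes Lamb1 and Lamc1 and the nidogen gene Nid1, with log2 differences of -0.98, -1.07 and -1.50, and of -0.43, -0.52 and -0.74 without vehicle replicate 1. Agrn, which encodes agrin, was the 1 gene of the 12 higher without overlap, where 12.1% of all genes tested were. It had 25.8, 24.9 and 26.1 FPKM in TMAO and 21.2, 20.6 and 22.9 FPKM in vehicle. Genes of proprotease activation lay lower in 8 of 8 tested (median -0.98, and -0.45 without vehicle replicate 1). 5 of the 8 did so without overlap, against 17.5% of all genes tested. The plasminogen activator genes Plat and Plau had log2 differences of -1.25 and -1.39, and of -0.77 and -0.66 without vehicle replicate 1. The urokinase receptor gene Plaur had one of -1.996, and of -1.38 without that library.

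Receptors of TIMPs and MMPs lay lower in 7 of 8 tested (median -0.42, and -0.033 without vehicle replicate 1). Without overlap 3 lay lower and 0 higher, against 17.5% and 12.1% of all genes tested, and without vehicle replicate 1 these were 3 and 2, against 21.7% and 15.6%. Cd63, a tetraspanin that binds TIMP1, had 12.8, 14.6 and 13.1 FPKM in TMAO and 97.4, 32.9 and 18.2 FPKM in vehicle, without overlap. Cd44, a hyaluronan receptor, and the integrin genes Itgb1 and Itgb3 had log2 differences of -1.91, -1.05 and -0.43, and of -1.05, -0.47 and -0.062 without vehicle replicate 1. Cytokine and AP-1 genes, among them known inducers of TIMP1, included Il6 and Lif, which passed the level filter only through vehicle, so that their direction was set by the filter. The other 11 tested lay lower (median -1.01, and -0.40 without vehicle replicate 1), 5 of them without overlap, against 17.5% of all genes tested. The interleukin-6 family gene Il11 had 0.848, 1.57 and 0.431 FPKM in TMAO and 156, 9.46 and 3.66 FPKM in vehicle. The AP-1 gene Jun had a log2 difference of -1.60, and of -0.89 without vehicle replicate 1. Stat3, the transcription factor downstream of this family, had 7.83, 11.2 and 7.80 FPKM in TMAO and 34.5, 20.9 and 14.2 FPKM in vehicle. Leaving out Il6 and Lif, all 11 tested genes of the list were highest in vehicle replicate 1, where 41.8% of all genes tested were.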

How the data were processed

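Per the submitters' processing notes, the tools included cutadapt 1.9 and the build was mm9. The sources used here name no aligner, quantifier, strand setting, annotation or test. Of 2 deposited tables that hold equal values, 1 was used. It holds FPKM per gene and library, and the authors' ratio (fold) of mean FPKM, its log2, and a p-value and q-value, per the file headers. Columns were matched to libraries by the names in the labels. Of the deposited gene IDs 99.64% were in GENCODE M21 (GRCm38). Depth is unknown: the table has no counts, and at most 31.9% of low values lay within 2% of whole multiples of a step, so reads were not recovered.

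Genes reaching 1 FPKM in 3 or more libraries were fitted on log2(FPKM + 1) with limma 3.58.1 in R 4.3.3 (trend, robust), two-sided, with Benjamini-Hochberg adjustment over all 14206 genes. The fit was checked on simulated data. The 10 genes and all lists were chosen with earlier results of these data known. Named genes were the 10, genes overlapping them, up to 4 per list by smallest p, the first 2 of each marker list, from which markers were printed where a result touched them, and the 3 nearest profiles of Timp1 and Timp4. Figures were drawn with matplotlib 3.10.9.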

Additional observations from a re-analysis of the deposited data

How the results depend on the processing

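No gene passed the adjusted threshold under any of the 13 alternatives (pseudocount 0.1, no filter, quantile normalization, median scaling, rescaling without mitochondrially encoded genes, no trend or robust estimation, replicate block, and each library left out). The differences of Timp1, Timp2, Timp3, Timp4, Mmp14 and Mmp15 kept their sign in all of them. Reck turned to 0.061 under quantile normalization, 0.065 under median scaling and 0.038 after rescaling. Mmp16 turned to -0.015 under quantile normalization. With 1 library left out at a time, the log2 differences ran from -0.15 to 0.13 for Reck, from -0.071 to 0.11 for Mmp16, from -0.23 to 0.71 for Mmp17, from -3.19 to -1.24 for Timp1 and from 0.58 to 0.71 for Timp4. They ran from -1.29 to -0.21 for Timp3, from -1.63 to -0.39 for Mmp14 and from -0.89 to -0.29 for Mmp15. The replicate block gave 0 genes past the threshold, with Timp4 at 0.63 (adjusted p = 0.493 by limma). Deviations of libraries with the same replicate number had correlations of -0.216, -0.0636 and -0.0153 across genes. Those of libraries with unlike numbers ran from -0.266 to 0.244. Deviations from means of 3 libraries cannot show whether libraries with the same number shared more than that number. The comparison of overlap without vehicle replicate 1 was chosen after seeing the data (genes lower 3083 against 2479 with all libraries, higher 2218 against 1718). Mmp2 kept its sign in 7 alternatives, and the others gave no value for it because it is under the filter. The depth behind these low values is unknown.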
